A study of Mus musculus with 8 samples.

Results

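The genes described here encode the iron and 2-oxoglutarate dioxygenases of mouse, a family in which vitC serves many members as a cofactor. They were taken by name, with earlier results of these data known but by a rule that used no measured value, from the TET, JmjC, and AlkB families and the prolyl, lysyl, and asparaginyl hydroxylases. Of 53 listed symbols, 52 had a row among the 37263 Ensembl genes counted, and Tmlhe was not analysed here. RNA-seq was performed in E14 mouse ESCs (strain 129/Ola), a line grown without feeders and with LIF in DMEM with 15% fetal calf serum, after the serum medium was exchanged for 2i. 2i is serum-free NDiff 227 with LIF, the MEK inhibitor PD0325901, and the GSK3 inhibitor CHIR99021, and it was used either alone or with 17 µM vitC (L-ascorbic acid). Total RNA was depleted of ribosomal RNA and read as 50 bp single ends. RNA was taken at 4, 16, 24, and 32 hr in each medium, as 1 library for each of the 8 combinations of 1 cell line, and no serum library was analysed here. There were no replicate cultures, so each test below takes its error from how far the time points depart from a common vitC effect, or the media from a common time course. RNA was measured in bulk, so that a change in the share of cells that express a gene and a change in its RNA per cell cannot be told apart.

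These enzymes hold an iron(II) ion in their active site and use oxygen and 2-oxoglutarate to hydroxylate or demethylate their substrate, releasing succinate and carbon dioxide. vitC is thought to keep the iron reduced, and collagen hydroxylation is the classical reaction that fails without it. In ESCs the same chemistry serves the TET proteins, which oxidize 5-methylcytosine to 5-hydroxymethylcytosine, and the JmjC histone demethylases. It also serves the EGLN proteins, which hydroxylate HIF alpha subunits in the presence of oxygen and so mark them for destruction through VHL. vitC addresses the activity of these proteins, whereas the libraries measure only the RNA of their genes.

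The libraries held 4753528 to 18434932 counts, with medians of 15504519.5 in 2i and 9431406 with vitC, so that the vitC libraries at 16 and 24 hr give the widest counting intervals. By the deposited file names, sequencing lane 8 held the 4 and 24 hr libraries and lane 7 those of 16 and 32 hr. Each comparison of media is therefore within a lane, as are 24 hr against 4 hr and 32 hr against 16 hr, but for 16 hr or 32 hr against 4 hr the lane and the time cannot be told apart. The share of counts on Lars2, together with Gm23935 and ENSMUSG00000093077, which vary with it, was 0.0277, 0.206, 5.92, and 0.564% in 2i at the 4 times, and 0.0113, 7.11, 6.37, and 4.21% with vitC. The 8 pluripotency markers checked, Pou5f1, Sox2, and Nanog among them, summed to 1880 to 2452 CPM in the 8 libraries, though single markers moved in both directions with time. Values below are CPM (counts scaled to a common library total after TMM normalization) with Wilson 95% confidence intervals that cover counting error only, or log2 ratios. Levels of different genes are compared as RPKM, which is CPM per kilobase of merged exon. A call means an adjusted p-value under 0.05 (edgeR, quasi-likelihood, Benjamini-Hochberg adjustment over the 14931 genes that reached 1 CPM in 2 or more libraries). Of the 52 members 51 were tested.

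Of the 52 genes 51 passed the filter on low counts in these ESCs. Phyh, the peroxisomal enzyme that starts the breakdown of phytanic acid, had the highest mean over the 8 libraries at 25.0 RPKM (18.3 to 30.4), followed by the H3K9 demethylase gene Kdm3a at 24.7 RPKM (19.3 to 30.8). Their ranges over the libraries overlapped, as did those of the next 6 genes in order, Kdm4a, Kdm5b, Alkbh7, Alkbh5, Tet1, and Jmjd6, with means of 19.8, 19.7, 19.1, 18.7, 18.7, and 18.5 RPKM. The class medians of these means lay between 4.43 RPKM for the 10 collagen and ER hydroxylase genes and 10.3 RPKM for the 4 HIF hydroxylase genes. Tet3 at 0.948 RPKM, P4htm at 0.759, and P3h2 at 0.240 were among the lowest. Kdm4d, a histone demethylase gene of the Kdm4 family, was lowest of all at 0.0840 RPKM, with 0 to 9 counts a library, and was the 1 member that did not pass the filter. Its 0 counts in 2i at 32 hr allow up to 0.221 CPM.

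**Figure D1:**
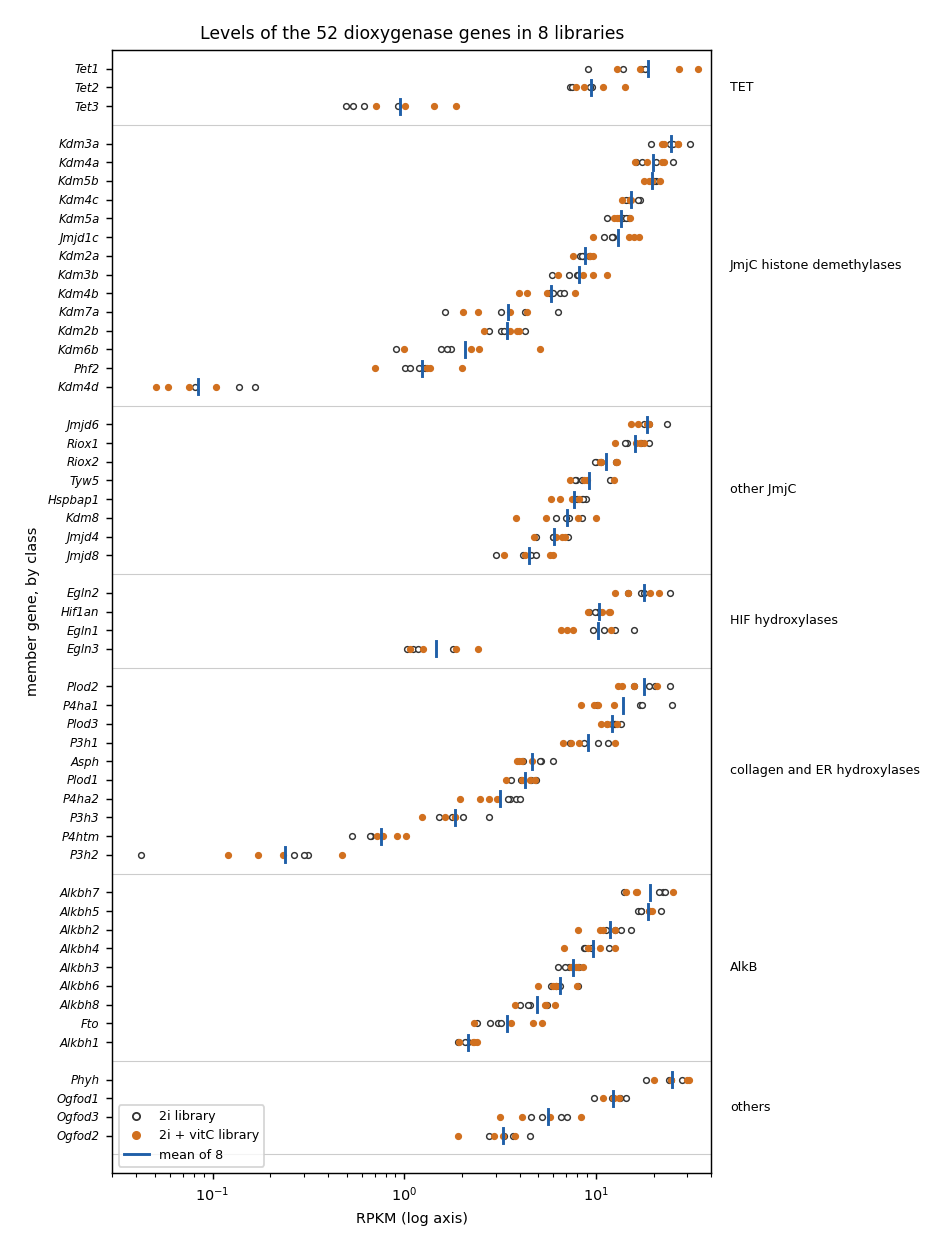
Level of each of the 52 members in RPKM (log axis), grouped by class and ordered within a class by the mean of the 8 libraries (blue bar). Open circles are the 2i libraries and filled circles the libraries with vitC. The 2i library at 32 hr in which Kdm4d had 0 counts is not drawn. Phyh and Kdm3a are the highest at means of 25.0 and 24.7 RPKM, and the points of P4ha1 and P4ha2 with vitC lie to the left of most of their 2i points.

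Did vitC change the RNA of the enzymes it assists? No member passed the threshold for vitC over the 4 time points (0 of 51), where 25 of all 14931 genes did (0.167%). At an unadjusted p-value under 0.05, edgeR counted 12 members (23.5%, against 13.8% of all genes), and DESeq2 called 3 members (5.88%, against 1.99% of all genes). The 12 comprised 6 with higher RNA with vitC (11.8% of members, against 8.08% of all genes) and 6 with lower RNA (11.8%, against 5.73%). The 6 higher ones were Tet1, Tet2, Tet3, Kdm3b, Kdm6b, and Fto, which act on methyl marks of DNA, histones, or RNA. The 6 lower ones were P4ha1, P4ha2, Plod2, Asph, Egln1, and Hspbap1, of which the first 5 hydroxylate collagen, other secreted or membrane proteins, or HIF. The 12 included all 3 TET genes, but only 2 of the 13 histone demethylase genes tested and 1 of the 9 AlkB genes. The rest were 4 of the 10 collagen and ER hydroxylase genes, 1 of the 4 HIF hydroxylase genes, and 1 of the 8 other JmjC genes. Whether direction goes with the function of the members was not tested. Read by direction alone, 4 members were higher with vitC at all 4 times (Tet1, Tet3, Kdm3b, and Kdm6b), which is 7.84% of the members and below the 11.0% of all genes. Another 6 were lower at all 4 times (P4ha1, P4ha2, Egln1, Hspbap1, Plod3, and Alkbh2), 11.8% against 10.7% of all genes. The fitted log2 ratio over the 51 members had a median of -0.01, next to -0.02 for all genes. By class the median was 0.59 for the 3 TET genes, 0.01 for the 13 histone demethylase genes tested, 0.00 for the 8 other JmjC genes, -0.00 for the 4 HIF hydroxylase genes, -0.21 for the 10 collagen and ER hydroxylase genes, 0.08 for the 9 AlkB genes, and -0.09 for the other 4. The summed level of 7 fibroblast markers, which Col1a1 and Col1a2 made up for the most part, differed between the media too. It was 115 CPM in 2i and 95.9 CPM with vitC at 4 hr, but 260 and 415 CPM at 16 hr, 362 and 668 CPM at 24 hr, and 285 and 409 CPM at 32 hr. Its defining markers Dcn and Lum were at no more than 3.00 and 0.429 CPM in any library, and the part of these markers in the members' vitC ratios was not tested.

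**Figure D2:**
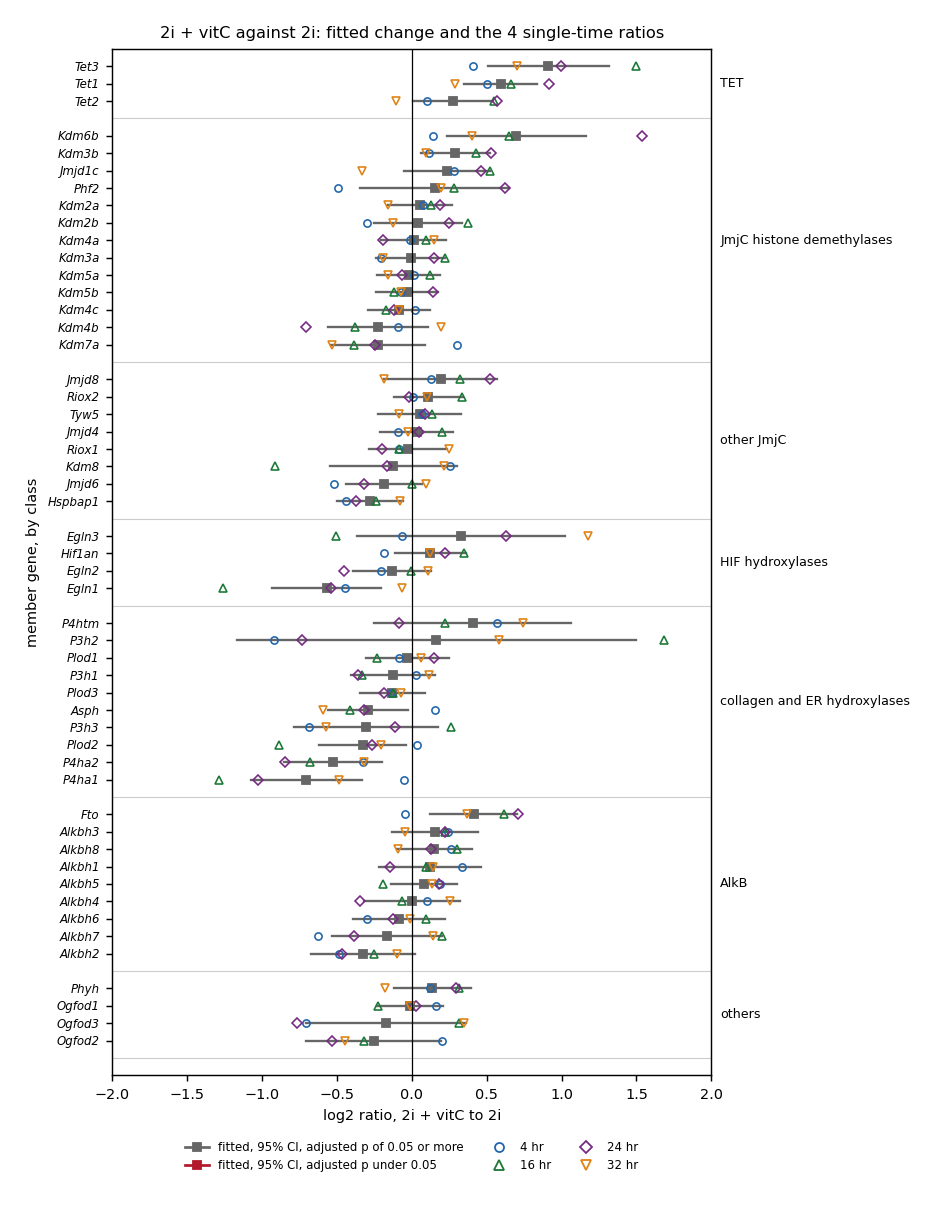
log2 ratio of 2i with vitC to 2i for the 51 members tested, by class. Squares with bars are the edgeR fit over the 4 times with its 95% confidence interval, and open symbols are the single-time ratios. No member is drawn in the color of an adjusted p under 0.05. The 3 TET genes lie to the right, with fitted values of 0.28 to 0.91, and P4ha1, P4ha2, and Egln1 to the left, at -0.70, -0.53, and -0.57.

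The TET genes had the largest class median with vitC. Tet1 (ENSMUSG00000047146) was at 141, 264, 280, and 214 CPM at 4, 16, 24, and 32 hr in 2i and at 200, 418, 528, and 262 CPM with vitC. It was higher with vitC at every time, by log2 ratios of 0.50 (counting interval 0.42 to 0.58), 0.66 (0.60 to 0.73), 0.92 (0.84 to 0.99), and 0.29 (0.22 to 0.36). The levels of the media as groups overlapped, since the vitC library at 4 hr stood below 3 of the 2i libraries. The fitted log2 ratio was 0.59 (SE 0.11, 95% confidence interval 0.35 to 0.84), with an edgeR adjusted p of 0.051. This lies at the threshold, and the adjusted p was 0.00052 by DESeq2, 0.038 once every library had been thinned to the total of the smallest, 0.088 after GC content and exon length had been corrected for (log2 ratio 0.45), and 0.27 with the Lars2 share as a covariate (0.62, edgeR).

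Tet3 was the least abundant TET gene and had the largest ratio among all members tested. In 2i it was at 8.97, 8.31, 15.4, and 10.3 CPM, and with vitC at 12.0, 23.8, 30.9, and 16.9 CPM, from 139 to 203 counts in a library. Its log2 ratios were 0.41, 1.50, 0.99, and 0.70, each with a counting interval above 0, and the fitted ratio was 0.91 (SE 0.19, 95% confidence interval 0.51 to 1.32, edgeR adjusted p = 0.058, DESeq2 0.0037). Only the 2i library at 24 hr and the vitC library at 4 hr kept the media from separating. Tet2 was at 123, 126, 161, and 158 CPM in 2i and at 132, 185, 238, and 146 CPM with vitC. Its ratios were 0.55 and 0.57 at 16 and 24 hr, but 0.10 at 4 hr and -0.11 at 32 hr, and the fitted ratio was 0.28 (edgeR adjusted p = 0.34). The correction for GC content and length took this to 0.12 and that of Tet3 to 0.77. All 3 genes were thus furthest apart between the media at 16 or 24 hr and closer together at 32 hr, which a test of a linear change with hours does not address. That test passed the threshold for 0 of 51 members by edgeR and by DESeq2, where 0.0% and 0.0067% of all genes were called. At an unadjusted p-value under 0.05 edgeR counted 1 member in it, Asph (1.96%), against 2.89% of all genes.

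**Figure D3:**
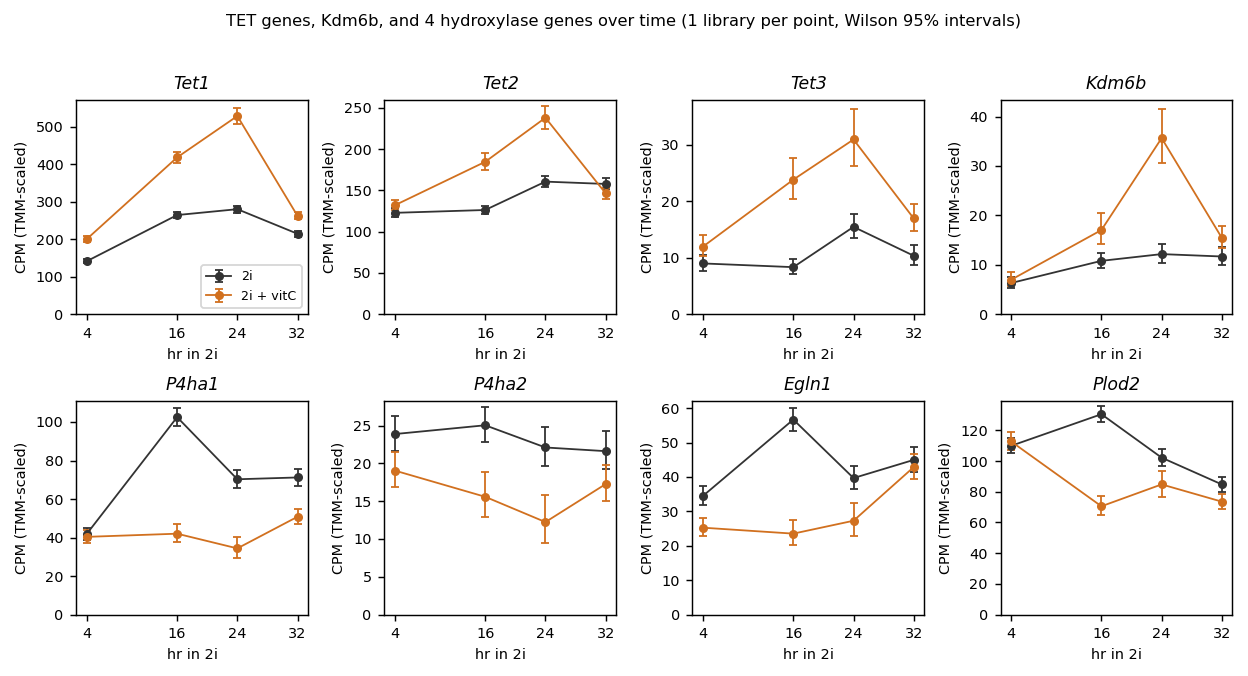
CPM of the 3 TET genes, Kdm6b, and 4 hydroxylase genes against hours in 2i, without vitC (dark) and with vitC (orange), 1 library per point, with Wilson 95% confidence intervals. Tet1 peaks at 528 CPM with vitC at 24 hr, and P4ha1 at 103 CPM in 2i at 16 hr, where it was at 42.0 CPM with vitC.

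Among the HIF hydroxylases, Egln1 (PHD2, the main oxygen sensor of the HIF pathway) was lower with vitC. In 2i it was at 34.5, 56.7, 39.7, and 45.0 CPM, and with vitC at 25.3, 23.5, 27.3, and 42.9 CPM. The first 3 vitC values lay below all 4 of the 2i values, whereas that at 32 hr lay within them. The log2 ratios were -0.45, -1.26, -0.54, and -0.07, and the fitted ratio was -0.57 (SE 0.17, 95% confidence interval -0.93 to -0.21, edgeR adjusted p = 0.15). Without the 16 hr libraries it was -0.34 (edgeR adjusted p = 0.45), and without the filter on low counts -0.58 (edgeR adjusted p = 0.0030). Egln2 (PHD1) was at 68.5, 41.1, 48.1, and 49.9 CPM in 2i and at 59.5, 41.0, 35.0, and 53.7 CPM with vitC, which overlapped throughout (fitted ratio -0.13, edgeR adjusted p = 0.67). Egln3 (PHD3) was rare, at 2.97, 4.79, 3.14, and 2.75 CPM in 2i and 2.84, 3.32, 4.94, and 6.42 CPM with vitC, and its fitted ratio of 0.33 had an interval of -0.37 to 1.02. Hif1an (FIH), the asparaginyl hydroxylase that blocks HIF transactivation, varied little, at 68.5, 60.9, 67.4, and 64.9 CPM in 2i and 60.3, 77.5, 78.6, and 70.7 CPM with vitC (fitted ratio 0.12, -0.12 to 0.36).

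P4ha1 and P4ha2 encode the catalytic alpha subunits of collagen prolyl 4-hydroxylase, whose product keeps the collagen triple helix stable at body temperature. P4ha1 was at 41.9, 103, 70.3, and 71.2 CPM in 2i and at 40.3, 42.0, 34.4, and 50.8 CPM with vitC. Without vitC it was more abundant at 16 hr than at 4 hr and stayed above its 4 hr level, and with vitC no library was above 50.8 CPM. At 4 hr the media did not differ beyond counting error (log2 ratio -0.05, -0.21 to 0.11), and at 16, 24, and 32 hr the ratios were -1.28, -1.03, and -0.49. The fitted ratio was -0.70 (SE 0.17, 95% confidence interval -1.07 to -0.33) with an adjusted p of 0.089 by edgeR and 0.010 by DESeq2. Without the 4 hr libraries it was -0.92 (edgeR adjusted p = 0.013).

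P4ha2 separated the media at every level. It was at 23.9, 25.0, 22.1, and 21.6 CPM in 2i and at 19.1, 15.6, 12.2, and 17.3 CPM with vitC, so that the lowest 2i library stood above the highest vitC library. Its log2 ratios were -0.32, -0.68, -0.84, and -0.32, and the fitted ratio was -0.53 (SE 0.15, 95% confidence interval -0.86 to -0.20, edgeR adjusted p = 0.13). At 24 hr the Lars2 share was 5.92% in 2i and 6.37% with vitC, and the ratios of P4ha1 and P4ha2 were -1.03 and -0.84 and those of Tet1 and Tet3 0.92 and 0.99. At 4 hr the shares were 0.0277 and 0.0113%, and these ratios were -0.05, -0.32, 0.50, and 0.41. At 16 hr the shares were 0.206% in 2i and 7.11% with vitC, and at 32 hr 0.564 and 4.21%. For the ratios at 16 and 32 hr the part of the share and that of vitC cannot be told apart. Each of these values rests on 1 library per medium, and the part of the share was not tested at single times. With the Lars2 share as a covariate the fitted ratios were -0.47 for P4ha1 and -0.50 for P4ha2 (edgeR adjusted p = 0.45 and 0.46).

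Plod2, which hydroxylates lysines of collagen telopeptides, was the most abundant gene of its class at 17.8 RPKM. It was at 110, 131, 102, and 84.8 CPM in 2i and at 113, 70.6, 84.8, and 73.6 CPM with vitC. The difference lay mainly at 16 hr (log2 ratio -0.89, against 0.04 at 4 hr), and the fitted ratio was -0.33 (edgeR adjusted p = 0.30), or -0.14 without the 16 hr libraries. Plod1 was at 24.5, 32.7, 27.5, and 31.1 CPM in 2i and at 23.0, 27.8, 30.5, and 32.4 CPM with vitC, with no steady direction. In the rest of the class, Plod3 had ratios between -0.19 and -0.07 and Asph a fitted ratio of -0.29, while P3h1, P3h3, P4htm, and P3h2 had intervals that included 0. Of the 10 genes of this class 6, 7, 9, and 6 were lower with vitC at 4, 16, 24, and 32 hr, beside 7286, 7763, 7741, and 7441 of all 14931 genes, nearly evenly split at each time.

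Egln1, Egln3, P4ha1, P4ha2, Plod1, Plod2, Kdm3a, and Kdm4b are known as HIF1 targets, and 7 of these 8 members had a fitted log2 ratio below 0 with vitC (median -0.28). Above 0 were 12.5% of the 8 and 47.3% of all genes. The signs of Kdm3a and Plod1, both near 0, turned in some alternative fits. At 4, 16, 24, and 32 hr the medians of these 8 were -0.09, -0.59, -0.40, and -0.13, beside medians of 0.01, -0.02, -0.02, and 0.00 over all genes. Not all of them moved alike. Kdm3a was at 253, 159, 199, and 208 CPM in 2i and at 220, 185, 221, and 182 CPM with vitC, a fitted ratio of -0.01 (-0.24 to 0.22). Kdm4b, which removes methyl groups from H3K9, was at 29.1, 27.8, 31.6, and 33.4 CPM in 2i and at 27.3, 21.4, 19.3, and 38.2 CPM with vitC, lower by -0.70 at 24 hr but higher by 0.19 at 32 hr. Hif1a itself had a fitted ratio of -0.15 (edgeR adjusted p = 0.51).

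Promoter sequences are shown for P4ha1, P4ha2, and Egln1, whose RNA was lower with vitC at all 4 times and which are known HIF1 targets, and for Tet1, which was higher at all 4 times. HIF1 binds the core ACGTG or GCGTG. Each line gives 250 bases before and 50 after the RefSeq transcription start in GRCm38.p6, read 5′ to 3′ on the strand of the gene, with each ACGTG or GCGTG on either strand (CACGT or CACGC on the other) in capitals. CACGTG would count on both strands, as it overlaps itself. P4ha1 is shown from chr10:59323046-59323345 (plus strand), P4ha2 from chr11:54100674-54100973 (plus strand), Egln1 from chr8:124949205-124949504 (minus strand), and Tet1 from chr10:62887275-62887574 (minus strand).
P4ha1: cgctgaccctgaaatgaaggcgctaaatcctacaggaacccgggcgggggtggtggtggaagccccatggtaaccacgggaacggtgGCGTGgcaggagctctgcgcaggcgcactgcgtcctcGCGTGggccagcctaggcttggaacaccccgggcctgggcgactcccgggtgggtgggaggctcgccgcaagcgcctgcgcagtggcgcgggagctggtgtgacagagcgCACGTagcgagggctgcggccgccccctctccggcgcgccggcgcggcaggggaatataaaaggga
P4ha2: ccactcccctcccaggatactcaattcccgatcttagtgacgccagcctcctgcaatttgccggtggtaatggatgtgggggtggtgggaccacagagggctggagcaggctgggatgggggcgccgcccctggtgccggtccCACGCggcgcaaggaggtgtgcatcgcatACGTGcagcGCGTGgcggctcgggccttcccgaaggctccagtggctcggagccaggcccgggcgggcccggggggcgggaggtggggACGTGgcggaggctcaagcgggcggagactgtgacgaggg
Egln1: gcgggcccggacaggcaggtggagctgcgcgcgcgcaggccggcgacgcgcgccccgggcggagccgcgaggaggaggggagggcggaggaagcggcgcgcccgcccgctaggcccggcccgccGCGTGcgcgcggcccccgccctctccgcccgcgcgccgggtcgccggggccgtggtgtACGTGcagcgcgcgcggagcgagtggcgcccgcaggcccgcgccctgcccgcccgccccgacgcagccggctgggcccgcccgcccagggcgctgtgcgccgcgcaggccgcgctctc
Tet1: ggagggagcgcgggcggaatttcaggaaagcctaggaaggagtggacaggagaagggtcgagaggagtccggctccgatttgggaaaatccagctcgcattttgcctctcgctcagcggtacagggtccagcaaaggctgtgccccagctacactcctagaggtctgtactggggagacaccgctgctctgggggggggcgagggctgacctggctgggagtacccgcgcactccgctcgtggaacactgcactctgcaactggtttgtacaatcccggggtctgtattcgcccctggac
The P4ha1 window held 3 such cores, starting 163, 126, and 16 bases before the start site, P4ha2 held 4, and Egln1 held 2. The Tet1 window held 0. RefSeq windows were found for 43 of the 52 members, 54 windows in all. ACGTG was in 17 of these (31.5%, against 19.6% of all 32851 windows), GCGTG in 28 (51.9% against 32.4%), and either in 32 (59.3% against 43.8%). The GC content was 70.3% in the P4ha1 and P4ha2 windows, 86.0% in that of Egln1, and 61.7% in that of Tet1. The genes shown were chosen by their direction in these data, and P4ha1, P4ha2, and Egln1 also as known HIF1 targets. Their core counts are therefore no test. Hspbap1, Plod3, Alkbh2, Tet3, Kdm3b, and Kdm6b also kept their direction at all 4 times and are not shown. The member windows and all windows were not matched for GC content or expression. A match is a description of the letters and not a binding site, and binding was not measured.

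For the histone demethylases the vitC ratios centered near 0. Kdm6b, which removes H3K27 methylation, was at 6.29, 10.8, 12.2, and 11.7 CPM in 2i and at 6.95, 17.0, 35.6, and 15.4 CPM with vitC. Its largest ratio was 1.54 at 24 hr (counting interval 1.24 to 1.87), and the fitted ratio was 0.70 (edgeR adjusted p = 0.16), or 0.41 without the 24 hr libraries. Kdm3b, a relative of Kdm3a, had ratios of 0.12, 0.43, 0.53, and 0.09 and a fitted ratio of 0.29 (edgeR adjusted p = 0.24). About 24.6% of its exon bases overlap the opposite-strand lincRNA Gm26538, and reads of the pair cannot be told apart here. The other 11 tested members of the class had fitted ratios between -0.23 and 0.23.

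The other JmjC genes include enzymes that hydroxylate ribosomal proteins, splicing factors, or tRNA. Jmjd6, the most abundant at 18.5 RPKM, was at 111, 86.3, 89.1, and 83.5 CPM in 2i and at 77.5, 86.4, 71.3, and 89.1 CPM with vitC, with a fitted ratio of -0.19 (-0.44 to 0.07). Hspbap1 was lower with vitC at every time, by -0.44, -0.24, -0.37, and -0.08 (fitted -0.28, edgeR adjusted p = 0.24). The remaining 6 genes, Jmjd4, Jmjd8, Kdm8, Riox1, Riox2, and Tyw5, had intervals that included 0. On the other strand, Jmjd8 shares 39.3% of its exon bases with Stub1, Riox1 31.9% with Gm26571, and Riox2 22.4% with Crybg3. Of the AlkB genes, Alkbh7, a mitochondrial protein, was the most abundant at 19.1 RPKM. It was at 23.0, 14.4, 22.0, and 23.5 CPM in 2i and at 14.8, 16.6, 16.7, and 25.9 CPM with vitC, with a fitted ratio of -0.17 (-0.54 to 0.20). Fto, which removes methyl groups from RNA, was at 31.2, 39.9, 41.8, and 36.6 CPM in 2i and at 30.2, 61.2, 68.5, and 47.2 CPM with vitC, alike at 4 hr and higher with vitC after that (fitted 0.41, edgeR adjusted p = 0.19). Alkbh5, another RNA demethylase gene, had a fitted ratio of 0.08 (-0.14 to 0.30), and Alkbh2, a DNA repair enzyme, was lower at every time (fitted -0.32, -0.67 to 0.02). Alkbh2 shares 29.5% of its exon bases with Usp30 on the other strand, and reads of the pair cannot be told apart here. Alkbh1, Alkbh3, Alkbh4, Alkbh6, and Alkbh8 had intervals around 0, as did Phyh, Ogfod1, Ogfod2, and Ogfod3.

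More members were called for time in 2i than for vitC. Between 4 and 24 hr, 9 members rose (17.6%, against 11.5% of all genes) and 1 fell (1.96%, against 8.98%). The 9 were all 3 TET genes, 4 of the 13 histone demethylase genes (Kdm6b, Kdm7a, Kdm3b, and Kdm4a), Fto, and Phyh, and the 1 that fell was Egln2. None of the 8 other JmjC genes and none of the 10 collagen and ER hydroxylase genes was called in this edgeR fit, with 4 and 0 of them at an unadjusted p-value under 0.05 (34.5% of all genes), and DESeq2, which called 19.1% of all genes, called none of them either. Without the filter on low counts edgeR called Kdm8 lower, and with the GC and length correction Riox1. The median log2 fold change was 0.07 over the members and 0.01 over all genes. Once GC content and exon length had been corrected for, the split changed to 4 that rose (8.97% of all genes did) and 4 that fell (12.4%), 5 of them among the 10 above. With the Lars2 share, which was lowest in both 4 hr libraries, as a covariate, edgeR called 0 members (0.0% of all genes), and 6 had an unadjusted p-value under 0.05. As this share moved with time, the part of each cannot be told apart.

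**Figure D4:**
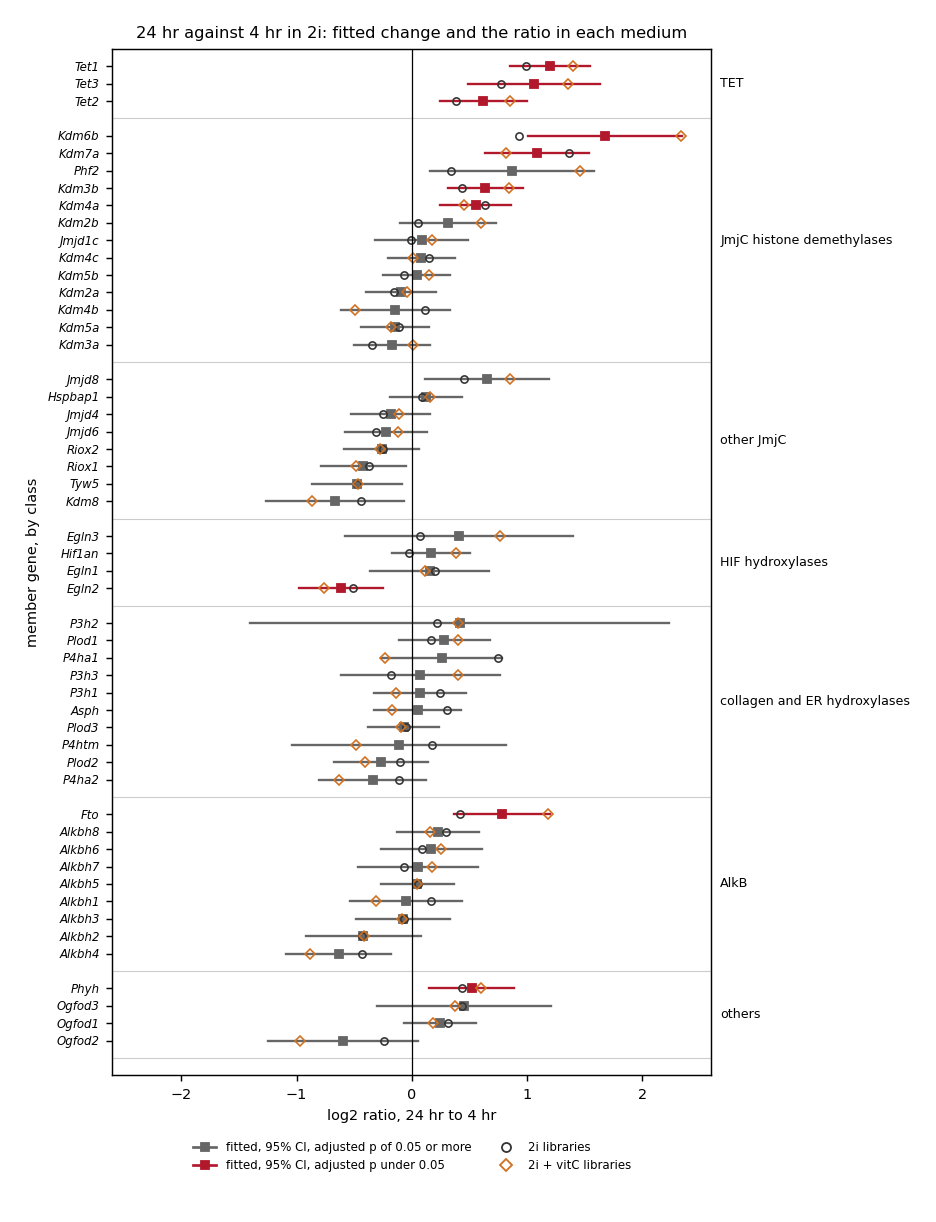
log2 ratio of 24 hr to 4 hr for the 51 members tested, by class. Squares with bars are the edgeR fit over both media with its 95% confidence interval, in red where the adjusted p is under 0.05, and open symbols are the ratios within each medium. The 9 red genes to the right include the 3 TET genes, and Egln2 (-0.61) is the 1 red gene to the left.

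Tet1 rose by a log2 fold change of 1.20 between 4 and 24 hr (SE 0.16, edgeR adjusted p = 0.00050), and by 0.98 and 0.50 to 16 and 32 hr (edgeR adjusted p = 0.0024 and 0.035). The ratio was 0.99 in the 2i libraries and 1.40 in those with vitC. After the GC and length correction the 24 hr rise was 0.89 (edgeR adjusted p = 0.0013). Tet2 and Tet3 rose by 0.62 and 1.06 to 24 hr (edgeR adjusted p = 0.025 and 0.015), with ratios of 0.85 and 1.36 in the vitC libraries and 0.39 and 0.77 in the 2i libraries. Whether the rise to 24 hr differed between the media was not tested. Corrected for GC content and length, these rises were 0.27 and 0.65 and were not called (edgeR adjusted p = 0.21 and 0.073). All 3 are long transcripts, with 15457, 16870, and 16695 bases of merged exon.

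Kdm6b had the largest rise of all members to 24 hr, 1.68 (SE 0.31, edgeR adjusted p = 0.0031), made up of 0.93 in 2i and 2.33 with vitC. Kdm7a, which acts on H3K9 and H3K27, was at 16.4, 32.2, 42.7, and 63.6 CPM in 2i and at 20.2, 24.5, 35.9, and 44.0 CPM with vitC. All 6 later libraries were above both 4 hr libraries, and in each medium the order of the levels was that of the times. It rose by 1.09 to 24 hr and by 1.53 to 32 hr (edgeR adjusted p = 0.0041 and 0.00034), and the latter was also called with the Lars2 share as a covariate (2.19, edgeR adjusted p = 0.023).

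Fto rose by 0.79 to 24 hr and by 0.67 to 16 hr (edgeR adjusted p = 0.014 and 0.032), with ratios of 0.42 and 0.36 in the 2i libraries and 1.18 and 1.02 in those with vitC. Phyh was at 34.7, 45.3, 46.9, and 53.2 CPM in 2i and at 37.8, 56.3, 57.5, and 46.9 CPM with vitC, with both 4 hr libraries lowest. It rose by 0.52 to 24 hr (edgeR adjusted p = 0.047). Egln2 fell by 0.61 to 24 hr and by 0.64 to 16 hr (both edgeR adjusted p = 0.023), and both of its 4 hr libraries were above all 6 later ones. The other HIF hydroxylase genes were not called at any time in the edgeR fit on all libraries. Egln1 was called higher at 32 hr than at 4 hr without the filter on low counts (0.61) or without either 16 hr library (0.58 for each), and at 16 hr without the vitC library of that time (0.77, edgeR adjusted p = 0.037).

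The comparisons of 16 and 32 hr with 4 hr share the 4 hr libraries with that of 24 hr and give their own values here. To 16 hr, 3 members rose (Tet1, Kdm6b, and Fto, 5.88% against 9.16% of all genes) and 1 fell (Egln2, 1.96% against 7.24%). To 32 hr, 6 rose (Tet1, Kdm3b, Kdm4a, Kdm6b, Kdm7a, and P3h1, 11.8% against 13.5%) and 2 fell (Jmjd4 and Tyw5, 3.92% against 11.8%). With the GC and length correction the splits were 2 that rose (7.39% of all genes did) and 3 that fell (9.96%) to 16 hr, 2 of them among the 4 above, and 4 that rose (11.1%) and 5 that fell (13.4%) to 32 hr, 5 of them among the 8 above. P3h1, the collagen prolyl 3-hydroxylase, was at 28.1, 39.5, 33.3, and 44.4 CPM in 2i and at 28.6, 31.3, 26.0, and 48.1 CPM with vitC, and its rise to 32 hr was 0.71. Jmjd4, which hydroxylates a translation release factor, and Tyw5, a tRNA hydroxylase, fell by 0.52 and 0.67. Tyw5 shares 25.6% of its exon bases with Maip1 on the other strand. Between 16 and 32 hr, which share no library with 24 hr against 4 hr, 0 members were called by edgeR (0.583% of all genes were), and 5 were at an unadjusted p-value under 0.05 (9.8%, against 14.3% of all genes). Kdm7a came nearest, at 0.91 (edgeR adjusted p = 0.064), and was called by DESeq2, which called 1.63% of all genes. Tet1 had a log2 ratio of -0.48 in this comparison (edgeR adjusted p = 0.19), lower at 32 hr in both media.

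Each of the 8 libraries was left out in turn to see which time calls were lost. Such a fit also has fewer residual degrees of freedom, so a lost call need not have rested on the library left out. Phyh at 24 hr, for example, was lost without either 32 hr library, where its estimate stayed at 0.52. At 24 hr Tet1 (0.98 to 1.41) and Kdm7a (0.74 to 1.43) were called each time by edgeR. Tet2 (0.43 to 0.81), Kdm3b (0.48 to 0.80), Kdm6b (1.08 to 2.22), and Fto (0.49 to 1.10) were called 6 times, but not without the vitC library at 4 hr or that at 24 hr. Tet3 (0.74 to 1.41) was lost also without the 2i library at 24 hr, Egln2 (-0.85 to -0.43) without that at 4 hr, and Kdm4a (0.41 to 0.68) without either of them. Phyh (0.42 to 0.63) was called 2 times, when a 16 hr library was the one left out.

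To 16 hr, Tet1 (0.92 to 1.04) was called each time. Egln2 (-0.72 to -0.54) was called 5 times, and not without a 4 hr library or the 2i library at 16 hr. Fto (0.38 to 0.99) was called 4 times, and not without the vitC library at 4 or 16 hr or either library at 32 hr, and Kdm6b (0.67 to 1.40) was lost also without the 2i library at 16 hr. To 32 hr, Kdm7a (1.19 to 1.89) was called each time. P3h1 (0.54 to 0.87) was lost without the 2i library at 4 hr or the vitC library at 32 hr, and Kdm6b (0.67 to 1.39) without the vitC library at 4 hr or either at 32 hr. Tet1 (0.29 to 0.70) was called 5 times, and not without either 4 hr library or the 2i library at 32 hr. Jmjd4 (-0.60 to -0.44) and Tyw5 (-0.77 to -0.58) were lost without any library at 4 or 32 hr, and Kdm3b (0.31 to 0.58) and Kdm4a (0.34 to 0.52) were called when a 16 hr library was the one left out and in no other case.

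**Figure D5:**
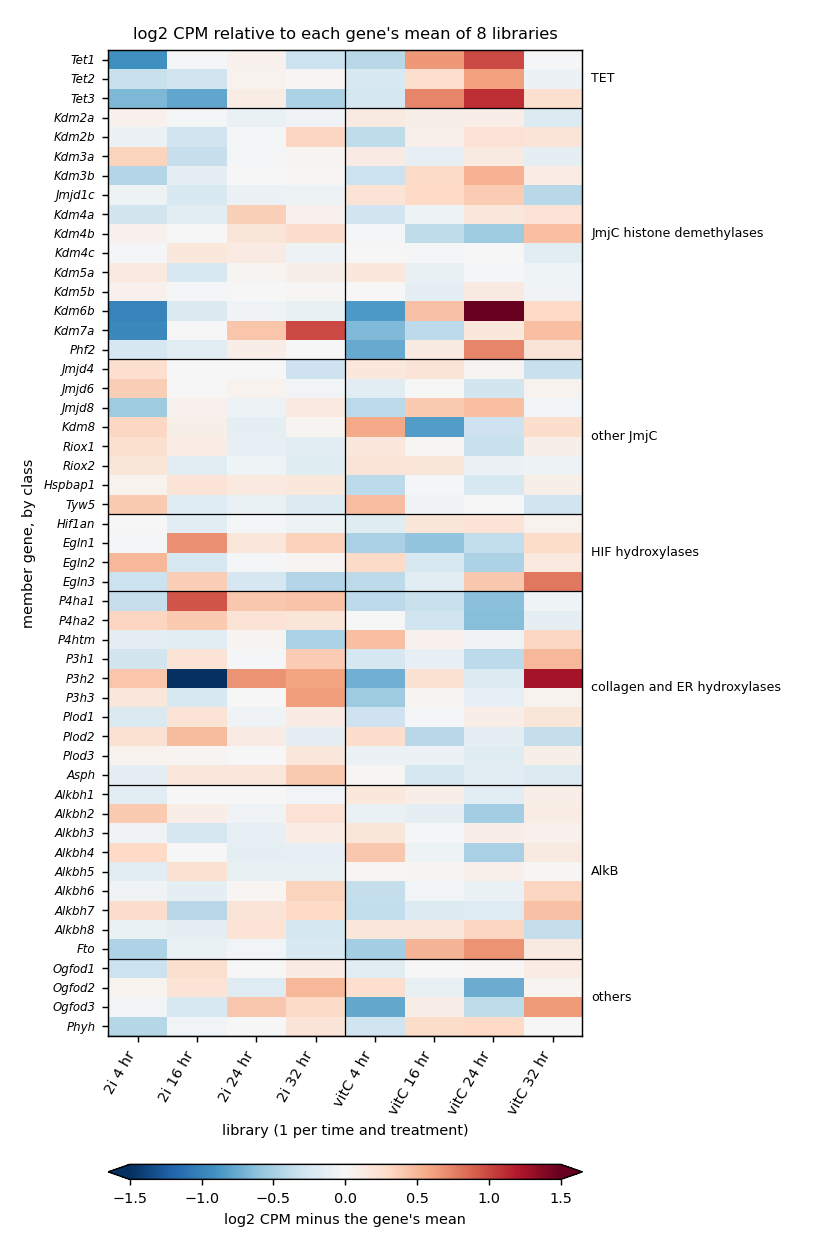
log2 CPM of the 51 members tested in each of the 8 libraries, minus the gene's mean over the libraries, by class. The 3 TET genes and Kdm6b are highest with vitC at 24 hr, and P4ha1 and Egln1 are highest in 2i at 16 hr. The color scale is clipped at 1.5 in either direction, which Kdm6b and P3h2 exceed.

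The genes that supply the enzymes, and their partners, were read beside them. Of 28 tested genes for vitC transport, iron handling, and 2-oxoglutarate metabolism, 2 rose and 2 fell between 4 and 24 hr (7.14% each, against 11.5 and 8.98% of all genes). With the Lars2 share as a covariate edgeR called 0 of them (0.0% of all genes), with 2 at an unadjusted p-value under 0.05. With the GC and length correction it called 8, where 8.97% of all genes rose and 12.4% fell. For vitC edgeR called 0, with 8 at an unadjusted p-value under 0.05 (28.6%, against 13.8% of all genes). DESeq2 called 3 of them and 1.99% of all genes. Idh1, which makes 2-oxoglutarate in the cytosol, was at 106, 251, 239, and 256 CPM in 2i and at 94.7, 218, 249, and 235 CPM with vitC, a rise of 1.28 to 24 hr (edgeR adjusted p = 0.00013). Pcbp1, an iron chaperone, rose by 1.04 to 24 hr, with ratios of 0.50 in the 2i libraries and 1.65 in those with vitC. Gsto1, which can reduce dehydroascorbate, fell by 1.27 to 24 hr, and the metal transporter gene Slc39a14 by 1.40. The ratios in 2i and with vitC were -0.97 and -1.57 for Gsto1, and -0.75 and -1.92 for Slc39a14. Idh2, the mitochondrial enzyme, rose by 0.99 from 16 to 32 hr (edgeR adjusted p = 0.0075). The vitC transporter gene Slc23a2 was at 45.3 to 76.4 CPM with no call, and Slc23a1 was below 1 CPM in every library.

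Among 15 partner genes, 4 rose to 24 hr (26.7%, against 11.5% of all genes), and edgeR called 0 of the 15 with the Lars2 share as a covariate, with 3 at an unadjusted p-value under 0.05. For vitC edgeR called 0, with 4 at an unadjusted p-value under 0.05 (26.7%, against 13.8% of all genes). DESeq2 called 1 of them and 1.99% of all genes. Those that rose were Arnt, the constant partner of HIF alpha subunits (0.64), Ogt, which binds TET proteins (0.76), Epas1, encoding HIF2 alpha (1.32), and Colgalt1, which glycosylates collagen hydroxylysine (0.53). The ratios in 2i and with vitC were 0.53 and 0.75 for Arnt, 0.85 and 0.68 for Ogt, 0.71 and 1.82 for Epas1, and 0.44 and 0.62 for Colgalt1. Serpinh1, the collagen chaperone, was at 320, 415, 499, and 512 CPM in 2i and at 248, 335, 291, and 395 CPM with vitC, lower with vitC at each time (fitted log2 ratio -0.46, edgeR adjusted p = 0.078). Both type I collagen genes, which are on the fibroblast marker list, rose, Col1a1 by 2.35 and Col1a2 by 2.25 to 24 hr, while none of the 10 collagen and ER hydroxylase genes was called.

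That list of 7 fibroblast markers summed to 95.9 to 115 CPM in the 4 hr libraries and to 260 to 668 CPM in the later ones, and 2 of its 5 tested genes rose to 24 hr. Its other members were low, with Col3a1 at 4.26 to 9.59 CPM, Dcn at 0.316 to 3.00, and Lum at 0 to 0.429. The 7 primitive endoderm markers summed to 11.0 to 13.5 CPM at 4 hr and to 17.1 to 33.3 CPM later, and Pdgfra and Dab2 rose to 24 hr while Sox7 was at 0 to 0.598 CPM. Pax6 was at 0 to 1.01 CPM and Mesp1 at 0 to 0.892 CPM. Nes fell by 0.68, and the mesoderm markers T and Eomes by 1.13 and 1.35. The 7 primitive endoderm markers summed to more with vitC than in 2i at 16, 24, and 32 hr (19.6, 33.3, and 33.0 CPM against 17.1, 19.4, and 25.1 CPM). The part of these marker changes in the members' values was not tested.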

How the data were processed

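Counts per Ensembl gene were deposited by the authors, without normalization, as 1 table per library. The submitters' processing notes name GSNAP, HTSeq, and the builds NCBIM37 and mm9. The annotation behind the counts and the strand setting are not given in the sources used here. Without the strand setting, reads of overlapping genes cannot be told apart here. GENCODE M21 (GRCm38) gave symbols, GC content, and merged exon lengths for the identifiers, in which 32604 of 37263 were found. Its coordinates also gave the exon overlaps of members with other genes, in another build than those named for the counts. Promoter windows came from RefSeq.

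Groups, times, and doses came from the sample labels. The labels give the inhibitors in mM where the study's text has µM, so their doses are not printed. The lane came from the file names. No 2 libraries held identical values, and no column or row without a gene was left over. Genes that reached 1 CPM in 2 or more libraries were tested with edgeR 4.0.16 in R 4.3.3 (TMM, quasi-likelihood, Benjamini-Hochberg, threshold 0.05) in an additive model of time and medium on all 8 libraries (3 residual degrees of freedom), with medium times hours added for the change with hours (2). The SE is the log2 fold change divided by the square root of F. Single-library ratios used log2 CPM with TMM-scaled totals and a prior count of 2, without a test, so they can differ slightly from ratios of the printed CPM. Their counting intervals are a normal approximation with a smaller added count, and are not centered exactly on the ratio. As reads carried no molecular identifiers, they cannot be taken as separate molecules, and intervals and the floor of 3 counts cover counting error only. The fits were tested on simulated data before use.

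The members and lists were chosen with earlier results of these data known. Values in every library are given for the TET and HIF hydroxylase genes, the members known as HIF1 targets, the most abundant member of each other class, and the 3 members called with the largest rise and fall for 24 hr against 4 hr. Fto, Phyh, and P3h1 were named also as called or class members, and Kdm3b, Hspbap1, Alkbh2, and Alkbh5 after their values were seen. From each other list at most 4 called or abundant genes are named, and Slc23a1, Slc23a2, Hif1a, Serpinh1, and further markers were named after their values were seen. Alternatives were DESeq2 1.42.0, RLE size factors, no filter on low counts, a correction for GC content and length (a smooth fit per library, 97.2% of genes with values), the Lars2 share as a covariate, thinning, models without time or medium, and each time point left out. Leaving out single libraries was chosen after seeing the data.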

Additional observations from a re-analysis of the deposited data

How the results depend on the processing

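No paired analysis was possible because each time and medium has 1 library, and time already stands as a block in the vitC test. For vitC the count of members called was 0 and became 3 with DESeq2 (Tet1, Tet3, and P4ha1) and 1 (Tet1) after thinning. It became 6 without the filter on low counts (Tet1, Tet3, Kdm6b, Egln1, P4ha1, and P4ha2). When a time point was left out it was 0 to 4, with 4 (Tet1, Tet3, Fto, and P4ha1) without 4 hr. For 24 hr against 4 hr it was 10 and became 0 with the Lars2 share as a covariate, 5 without the medium in the model, and 2 to 10 when a library was left out, with 2 (Tet1 and Kdm7a) without the vitC library at 4 hr or at 24 hr. For 16 hr against 4 hr it was 4 and became 9 without the filter, 0 with the covariate, 1 without the medium, and 2 to 5 without a library, with 2 without either 32 hr library. For 32 hr against 4 hr it was 8 and became 13 without the filter, 1 (Kdm7a) with the covariate, 4 without the medium, and 2 to 12 without a library, with 2 without the vitC library at 32 hr. For 32 hr against 16 hr it was 0, and 1 (Kdm7a) with DESeq2, without the filter, with the correction for GC content and length, or with the covariate, and 0 to 1 without a library. In the test over hours both tools called 0 members. Apart from the shares of all genes printed above, none were taken for these settings or for unadjusted p-values with the covariate. Such counts can therefore not be set against all genes. The covariate moves with time. It also differed between the media at 16 hr (0.206% in 2i and 7.11% with vitC) and at 32 hr (0.564 and 4.21%). There the part of the share and that of vitC cannot be told apart. For the other changes the cause was not tested.

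Over the 51 members, these 5 comparisons, and all alternatives, 3202 log2 fold changes kept their direction and side of the threshold, 115 lost the call, 67 gained one, 3 had no adjusted p, and 232 that were not called turned in sign. Most of these values were not called in the main fit. Only the 10, 4, and 8 members called there at 24, 16, and 32 hr against 4 hr could lose a call under an alternative. The 1 called value that turned was Tet3 at 24 hr against 4 hr, -0.012 with the covariate. Of the members given in every library, these turned. For vitC, Kdm3a was 0.057 after thinning and -0.083 to 0.064 without a time point, Plod1 0.016 with the covariate, 0.032 after thinning, and -0.086 to 0.038 without a time point, and Alkbh7 -0.28 to 0.0048 without a time point. For 24 hr against 4 hr, Alkbh7 was -1.12 with the covariate, -0.034 after thinning, and -0.23 to 0.40 without a library, Hif1an was -0.040 with the correction for GC content and length, -0.35 with the covariate, and -0.036 to 0.38 without a library, and Plod2 was 0.76 with the covariate. Without a library Jmjd6 was -0.44 to 0.016, Kdm4b -0.50 to 0.12, and P4ha1 -0.17 to 0.69. Depth limits the rarest members, Kdm4d, P3h2, P4htm, and Egln3, where a few counts set the ratio.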
